A study of Mus musculus with 8 samples.

Results

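Embryonic stem cells that lack β-catenin were compared with and without an inhibitor of the kinase GSK3. The comparison uses 4 of the 8 libraries of the series, chosen by their labels: 2 libraries of β-catenin knock-out cells (genotype CTNNB1-/-, 129/Ola background) kept with CHIR99021 at 3 µM for 72 hours, and 2 libraries of the same knock-out line kept with the vehicle DMSO at 0.3 µl/ml for the same time. All 4 cultures were in medium with 10% FBS on gelatin without feeder cells, and the labels give the stage as blastocyst. The other 4 libraries are the parental line under the same 2 treatments. They entered the model as a source of the spread between libraries and are compared only where stated. The labels name 1 knock-out line, so a feature of that line and the loss of β-catenin cannot be told apart. Nothing in them tells whether the replicates were grown separately, so each p-value reflects library-to-library spread alone, and that spread may be technical.

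GSK3 phosphorylates β-catenin and so marks it for destruction, and CHIR99021, which occupies the ATP site of GSK3α and GSK3β, is widely used to stabilise β-catenin in stem cells. GSK3 has many other substrates, among them the MYC proteins, D-type cyclins, TFEB and related transcription factors, the antioxidant factor NRF2, CRMP proteins of the neuronal cytoskeleton and the clock protein NR1D1. Cells without β-catenin keep these other substrates. RNA-seq reads transcript levels and not phosphorylation or protein.

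Of 48440 genes in the deposited table, 17739 passed the filter on low counts and were tested. Totals of estimated counts were 25662118 to 27680649 in the 4 libraries, and replicates correlated across genes at 0.9887 with DMSO and 0.9894 with CHIR99021 on log2 CPM (counts per 1000000). Ctnnb1 (ENSMUSG00000006932, chromosome 9, 120929216 to 120960507), which encodes β-catenin, was at 7.98 and 10.7 CPM with DMSO and 8.70 and 9.42 CPM with CHIR99021, with no difference called between them (log2 fold change -0.04 ± 0.11 (SE; adjusted p = 0.871)). Its mean in the parental line was 896.5 ± 12.8 CPM with DMSO (SD, n = 2). The 7 markers of embryonic stem cells summed to 4386 to 4667 CPM in the 4 libraries, and none was under 1 CPM. The 8 fibroblast markers, which would show feeder cells, summed to 13.3 to 17.2 CPM, with Dcn, Lum and Postn at 0 counts in all 4 libraries. The 5 primitive endoderm markers summed to 25.9 to 29.4 CPM, the 5 trophoblast markers to 2.27 to 2.82 CPM, the 6 streak and mesoderm markers to 2.86 to 4.17 CPM and the 6 endothelial and blood markers to 5.23 to 6.09 CPM. The 6 neural markers summed to 107 and 99.4 CPM with DMSO and 81.8 and 83.6 CPM with CHIR99021, most of it from Tubb3. In a bulk sample, fewer cells of a type and less RNA per cell cannot be told apart.

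CHIR99021 changed 1252 genes, or 7.06% of those tested, at an adjusted p under 0.05 in edgeR's quasi-likelihood test with Benjamini-Hochberg adjustment. It raised 510 (2.88%) and lowered 742 (4.18%). Most changes were small: 691 of the 1252 were under 1.25-fold, 172 were over 1.5-fold (73 higher and 99 lower) and 50 over 2-fold (19 higher and 31 lower). The median log2 fold change was 0.33 for genes called higher and -0.28 for genes called lower, against 0.00 for all genes tested. The libraries of the 2 groups did not overlap in any of the 1252 genes called, nor in 9285 of all genes tested. How many genes are called rests on single libraries: 335 were called without DMSO replicate 1, 307 without CHIR99021 replicate 1 and 328 without CHIR99021 replicate 2. Without DMSO replicate 2, 1237 genes were called. In all 8 fits that each left out 1 library, 205 genes were called, 82 higher and 123 lower. On the first principal component of the 4 libraries, with 42.0% of the variance, the DMSO libraries lay at -34.7 and -11.3 and the CHIR99021 libraries at 20.4 and 25.6.

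**Figure D1:**
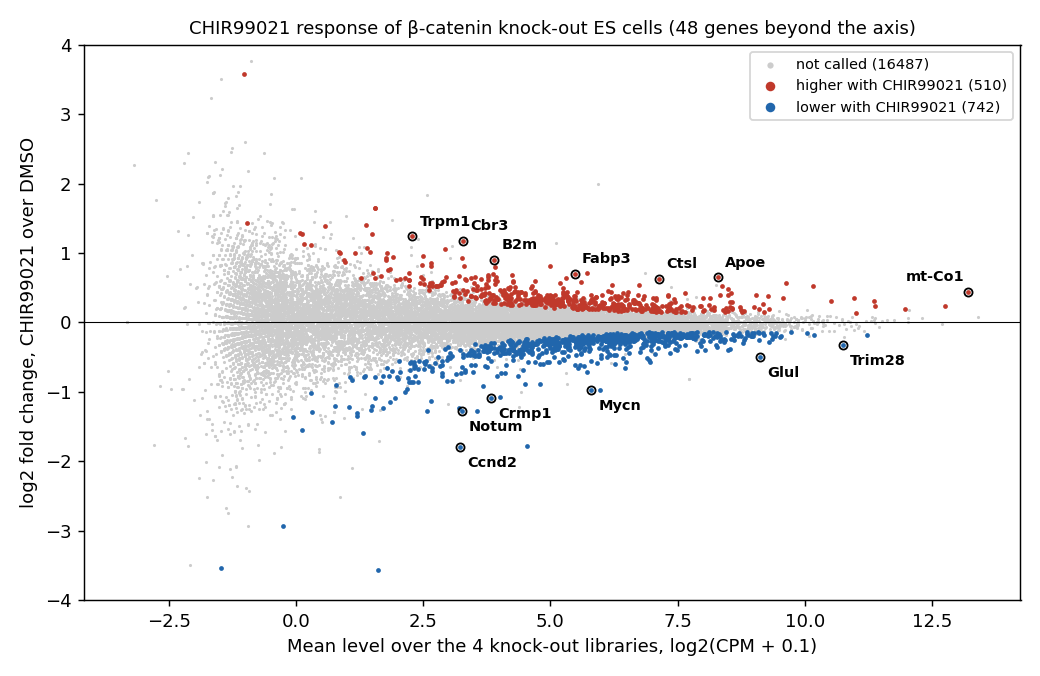
Each point is 1 of the 17739 genes tested in β-catenin knock-out cells, with its mean level over the 4 libraries as log2(CPM + 0.1) on the x axis and its log2 fold change, CHIR99021 over DMSO, on the y axis; 48 genes lie beyond ±4. Red marks the 510 genes called higher and blue the 742 called lower, most of them at moderate or high levels and small changes, with Ccnd2, Notum and Crmp1 among the named genes with the lowest values and Trpm1 and Cbr3 among those with the highest.

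Of the genes called at a level of 5 CPM or more in 1 group, and apart from those with clone or model names, the lowest log2 fold change was that of Ccnd2, and Mycn and Myc fell to about 0.51 of their level. Ccnd2 (ENSMUSG00000000184, chromosome 6, 127125162 to 127152193), which encodes the G1 cyclin D2, was at 14.5 and 14.2 CPM with DMSO and 4.12 and 4.13 CPM with CHIR99021. The replicates of each group lay close together and far from the other group, a log2 change of -1.79 ± 0.10 (SE; adjusted p = 1.92e-05). Mycn (ENSMUSG00000037169, chromosome 12, 12936093 to 12941914), a transcription factor of growth and proliferation that is abundant in stem cells, was at 75.3 and 72.8 CPM with DMSO and 38.9 and 36.6 CPM with CHIR99021, a change of -0.97 ± 0.05 (SE; adjusted p = 1.92e-05). Its relative Myc (ENSMUSG00000022346, chromosome 15, 61985391 to 61990374) was at 88.5 and 76.8 CPM with DMSO and 41.3 and 43.1 CPM with CHIR99021, a change of -0.97 ± 0.07 (SE; adjusted p = 9.01e-05). The fitted level with CHIR99021 was 0.510 of that with DMSO for Mycn and 0.511 for Myc. As for every called gene, the groups did not overlap for either.

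Other genes of the Myc network fell as well. Of 13 tested genes of the Myc family and their partners, 6 fell and none rose, with a median log2 fold change of -0.35 (the count was 3 without CHIR99021 replicate 1). Besides Myc and Mycn these were Max, the shared dimerization partner, and 3 genes of the antagonists that compete for it: Mnt at -0.48 ± 0.08, Mxi1 at -0.40 ± 0.06 and Mxd4 at -0.77 ± 0.16. Max, at -0.24 ± 0.05, was not called without DMSO replicate 1 (adjusted p = 0.171), without CHIR99021 replicate 1 (0.159) or without CHIR99021 replicate 2 (0.0695). Mxd4 was not called without DMSO replicate 1 (adjusted p = 0.0773), without DMSO replicate 2 (0.0705) or without CHIR99021 replicate 1 (0.139), Mnt without CHIR99021 replicate 2 (adjusted p = 0.057) and Mxi1 without CHIR99021 replicate 1 (adjusted p = 0.0525). Ribosome biogenesis and other genes known as MYC targets moved by little: of 40 tested, 11 fell and none rose, 37 had a negative value and the median was -0.10 (the count was 0 without CHIR99021 replicate 1, 2 without CHIR99021 replicate 2 or DMSO replicate 1 and 7 without parental DMSO replicate 1 or parental DMSO replicate 2). Bop1, a factor in maturation of the large ribosomal subunit, was at 149 and 139 CPM with DMSO and 118 and 119 CPM with CHIR99021, a log2 change of -0.27 ± 0.04 (SE; adjusted p = 0.00471). Odc1, the first enzyme of polyamine synthesis, was at -0.24 ± 0.04. Bop1 and Odc1 did not pass without CHIR99021 replicate 1 (adjusted p = 0.0529 and 0.0669). None of the 52 ribosomal protein genes of the cytosol was called in either direction in edgeR's test (median 0.02), and none of 18 cytosolic aminoacyl-tRNA synthetases (median -0.01).

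Other genes of the G1 to S transition fell beside Ccnd2. In the list of 26 G1 cyclins, their kinases, inhibitors and E2F factors, 7 fell and 1 rose (median -0.14). Ccnd1, encoding cyclin D1, was at 201 and 193 CPM with DMSO and 149 and 154 CPM with CHIR99021, a log2 change of -0.38 ± 0.04 (SE; adjusted p = 0.000528). Ccne1, encoding cyclin E1, was at 209.9 and 198 CPM with DMSO and 154 and 156 CPM with CHIR99021, a change of -0.40 ± 0.04 (SE; adjusted p = 0.000633). Ccnd3 was at -0.18 ± 0.05 (SE; adjusted p = 0.0545) and did not pass. The 3 cyclins named differ in scale: cyclin D2 went to 0.288 of its DMSO level, and D1 and E1 to 0.768 and 0.760. The 2 called genes for cyclin-dependent kinase inhibitors moved in opposite directions. Cdkn1c (ENSMUSG00000037664, chromosome 7, 143458339 to 143461050), an imprinted gene that encodes p57, fell, from 57.3 ± 1.93 to 36.3 ± 0.734 CPM (n = 2 each; SD), a log2 change of -0.66 ± 0.06 (SE; adjusted p = 0.000324). Cdkn1a, which encodes p21 and is a target of p53, rose, from 28.6 ± 0.311 to 37.03 ± 1.68 CPM (n = 2 each; SD), a change of 0.37 ± 0.06 (SE; adjusted p = 0.00504), though not without CHIR99021 replicate 1 (adjusted p = 0.0638). E2f8, a repressor of the E2F family, was at -0.58 ± 0.08.

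Some DNA replication and mitosis genes fell as well. Of 38 replication genes 8 fell and 1 rose (median -0.11; the count was 2 without CHIR99021 replicate 1, CHIR99021 replicate 2 or DMSO replicate 1). Mcm6, a subunit of the replicative helicase, was at 686 and 684 CPM with DMSO and 563 and 570.0 CPM with CHIR99021, a log2 change of -0.27 ± 0.04 (SE; adjusted p = 0.0021), and Rpa2, which binds single-stranded DNA, at -0.30 ± 0.04. Of 30 mitosis genes 8 fell and none rose (median -0.10; the count was 2 without CHIR99021 replicate 1 or CHIR99021 replicate 2 and 4 without DMSO replicate 1). Cdc20, which activates the anaphase-promoting complex, was at 287 and 269 CPM with DMSO and 225 and 216 CPM with CHIR99021. This was a change of -0.33 ± 0.05 (SE; adjusted p = 0.00189). No measure of proliferation or of cell number accompanies these libraries here.

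**Figure D2:**
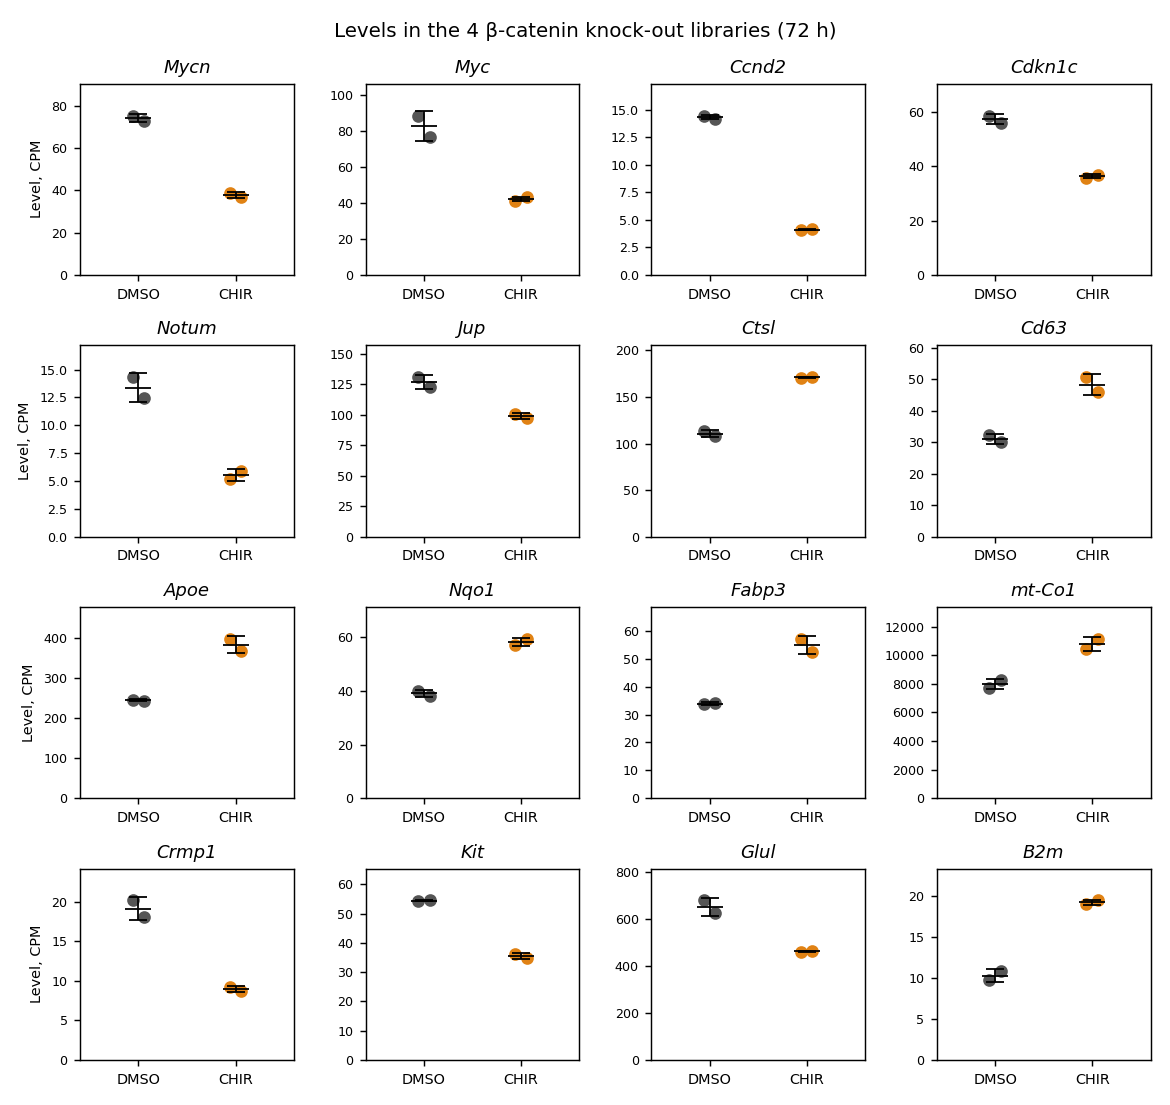
Levels in CPM of 16 genes in the 4 knock-out libraries, each axis from 0; points are single libraries, horizontal marks the group mean and bars 1 SD (n = 2). All 16 are called genes, and the groups did not overlap in any called gene, so their separation here adds nothing to the calls. Ccnd2 was at 14.5 and 14.2 CPM with DMSO and 4.12 and 4.13 CPM with CHIR99021.

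Several target genes of Wnt signalling fell in these cells. Of 22 tested targets 5 fell and 2 rose, with a median of -0.25, and these 7 calls were made in all 8 fits that left out 1 library. Of the 5, Myc, Ccnd1 and Ccnd2 are given above. Notum (ENSMUSG00000042988, chromosome 11, 120653788 to 120661175), a secreted enzyme that inactivates Wnt proteins, was at 14.3 and 12.4 CPM with DMSO and 5.15 and 5.91 CPM with CHIR99021, a log2 change of -1.28 ± 0.12 (SE; adjusted p = 0.000324). Axin2 (ENSMUSG00000000142, chromosome 11, 108920349 to 108950783), a scaffold of the β-catenin destruction complex and a common reporter of the pathway, was at 5.18 and 4.84 CPM with DMSO and 2.88 and 2.82 CPM with CHIR99021. This was a change of -0.82 ± 0.12 (SE; adjusted p = 0.00312). Both are negative feedback genes, and, as for every called gene, the groups did not overlap. The annotation places an antisense gene, Notumos, across Notum (1.56 CPM with DMSO), and whether the counting used strand is not given in the sources used here. The 2 that rose were Wls, a membrane protein needed for Wnt secretion that is also on a list of MITF-type targets, from 6.57 ± 0.579 to 12.5 ± 0.153 CPM (n = 2 each; SD), and the homeobox gene Cdx1, at 0.943 and 1.79 CPM with DMSO and 3.59 and 3.63 CPM with CHIR99021. Their log2 fold changes were 0.92 ± 0.10 (SE; adjusted p = 0.00064) and 1.41 ± 0.20 (SE; adjusted p = 0.00247).

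Among the ligands, receptors and cytoplasmic parts of the pathway 4 of 42 fell and none rose (median -0.07; the count was 1 without CHIR99021 replicate 2 and 2 without CHIR99021 replicate 1 or DMSO replicate 1). The share lower over all genes tested was 4.18%, and this list was not tested against it. The call made without each library in turn was Tle4, a Groucho-type co-repressor of TCF factors. Tle4 was at 91.5 and 91.4 CPM with DMSO and 68.2 and 72.9 CPM with CHIR99021, a log2 change of -0.37 ± 0.05 (SE; adjusted p = 0.00145). Tcf7l1, the TCF repressor of stem cells, was at 60.8 and 62.7 CPM with DMSO and 48.9 and 44.2 CPM with CHIR99021, a change of -0.41 ± 0.06 (SE; adjusted p = 0.00402), and did not pass without CHIR99021 replicate 2 (adjusted p = 0.0553). The kinase genes themselves did not pass: Gsk3a was at -0.01 ± 0.05 (SE; adjusted p = 0.958) and Gsk3b at 0.08 ± 0.05 (SE; adjusted p = 0.429). The 2 genes for FRAT proteins, which bind GSK3 and were looked at after values were seen, both fell. Frat1 was at 3.23 and 3.09 CPM with DMSO and 1.21 and 1.27 CPM with CHIR99021, a log2 change of -1.35 ± 0.25 (SE; adjusted p = 0.0109), and Frat2 at 5.87 and 5.65 CPM with DMSO and 3.30 and 3.28 CPM with CHIR99021, a change of -0.81 ± 0.15 (SE; adjusted p = 0.0101). Frat1 did not pass without DMSO replicate 1 (adjusted p = 0.0757), without CHIR99021 replicate 1 (0.0852) or without CHIR99021 replicate 2 (0.0788), and Frat2 without DMSO replicate 1 (adjusted p = 0.0748), without CHIR99021 replicate 1 (0.0727) or without CHIR99021 replicate 2 (0.0801). DESeq2 gave neither gene an adjusted p, and Frat1 was not tested under the filter of at least 5 CPM in 2 libraries.

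Some genes of cell adhesion related to β-catenin fell. Jup (ENSMUSG00000001552, chromosome 11, 100368958 to 100397763), which encodes plakoglobin, the closest relative of β-catenin, was at 131 and 122 CPM with DMSO and 101 and 97.2 CPM with CHIR99021. Its log2 change was -0.36 ± 0.05 (SE; adjusted p = 0.00162). Cdh3, encoding P-cadherin, was at 15.3 and 16.2 CPM with DMSO and 9.87 and 10.6 CPM with CHIR99021, a change of -0.62 ± 0.08 (SE; adjusted p = 0.00149). Pkp2, a desmosome protein of the armadillo family, was at -0.54 ± 0.08. In all, 4 of 15 catenin, cadherin and desmosome genes fell and none rose (median -0.05), beside 4.18% lower over all genes tested.

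Many lysosomal genes rose. Of 51 tested genes for lysosomal enzymes, membrane proteins and subunits of the V-ATPase, the pump that acidifies the lysosome, 20 rose and 2 fell, and 46 had a positive value; the median was 0.19 against 0.00 for all genes. The count of calls higher was 12 without CHIR99021 replicate 1, and 11 members were called higher in all 8 fits. Ctsl (ENSMUSG00000021477, chromosome 13, 64359337 to 64370890), encoding the protease cathepsin L, was at 113 and 108 CPM with DMSO and 171 and 171 CPM with CHIR99021. Its log2 change was 0.63 ± 0.04 (SE; adjusted p = 4.55e-05). Ctsc, encoding cathepsin C, was at 7.36 and 6.94 CPM with DMSO and 12.96 and 12.1 CPM with CHIR99021, a change of 0.81 ± 0.09 (SE; adjusted p = 0.000838). Ctsb, encoding cathepsin B, was at 0.39 ± 0.05; it shares its locus with Fdft1 on the opposite strand, itself at -0.11 ± 0.04 and not called. Both CHIR99021 libraries exceeded both DMSO libraries for each of these 3 proteases, as for every gene called higher. Of 10 tested cathepsins, grouped after values were seen, 4 rose and 1 fell. The one that fell was Ctsf, encoding cathepsin F, at 13.8 and 15.3 CPM with DMSO and 11.4 and 11.2 CPM with CHIR99021. The log2 change was -0.37 ± 0.09 (SE; adjusted p = 0.0308), and it did not pass without DMSO replicate 1 (adjusted p = 0.0748), without DMSO replicate 2 (0.128), without CHIR99021 replicate 1 (0.125) or without CHIR99021 replicate 2 (0.159), nor in DESeq2 (adjusted p = 0.152).

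Some enzymes that break down sugar chains and lipids, and some proteins of the lysosomal membrane, rose. Of 26 lysosomal enzymes of sugar chains and glycolipids, grouped after values were seen, 8 rose, 1 fell and 17 were not called (median 0.18; the count higher was 4 without CHIR99021 replicate 1 and 5 without CHIR99021 replicate 2, DMSO replicate 1 or DMSO replicate 2). The fall was that of Manba, a mannosidase, at -0.17 ± 0.05 (SE; adjusted p = 0.0478), which was not called in any of the 8 fits that left out 1 library. Hexa, a subunit of β-hexosaminidase, was at 28.9 and 29.7 CPM with DMSO and 44.9 and 41.9 CPM with CHIR99021. Its log2 change was 0.57 ± 0.07 (SE; adjusted p = 0.00105). Fuca2, a fucosidase, was at 0.65 ± 0.08 (SE; adjusted p = 0.00148). Neu1, a sialidase, was at 0.44 ± 0.07, Asah1, acid ceramidase, at 0.44 ± 0.06 and Tpp1, a peptidase, at 0.36 ± 0.05. The tetraspanin gene Cd63 (ENSMUSG00000025351, chromosome 10, 128900989 to 128912822) was at 32.3 and 29.98 CPM with DMSO and 50.7 and 45.9 CPM with CHIR99021, a change of 0.63 ± 0.06 (SE; adjusted p = 0.000492). Npc2, which moves cholesterol out of the lysosome, was at 0.39 ± 0.05 and Laptm4b, a membrane protein of late endosomes, at 0.43 ± 0.06. Of 17 V-ATPase subunits 6 rose and none fell (median 0.17; the count was 3 without CHIR99021 replicate 1 or CHIR99021 replicate 2). Atp6v1a, the catalytic subunit, was at 134 and 140.0 CPM with DMSO and 180.3 and 181 CPM with CHIR99021, a change of 0.40 ± 0.04 (SE; adjusted p = 0.000538), and Atp6ap2, an accessory subunit, at 0.39 ± 0.05. The V-ATPase genes were grouped after values were seen.

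**Figure D3:**
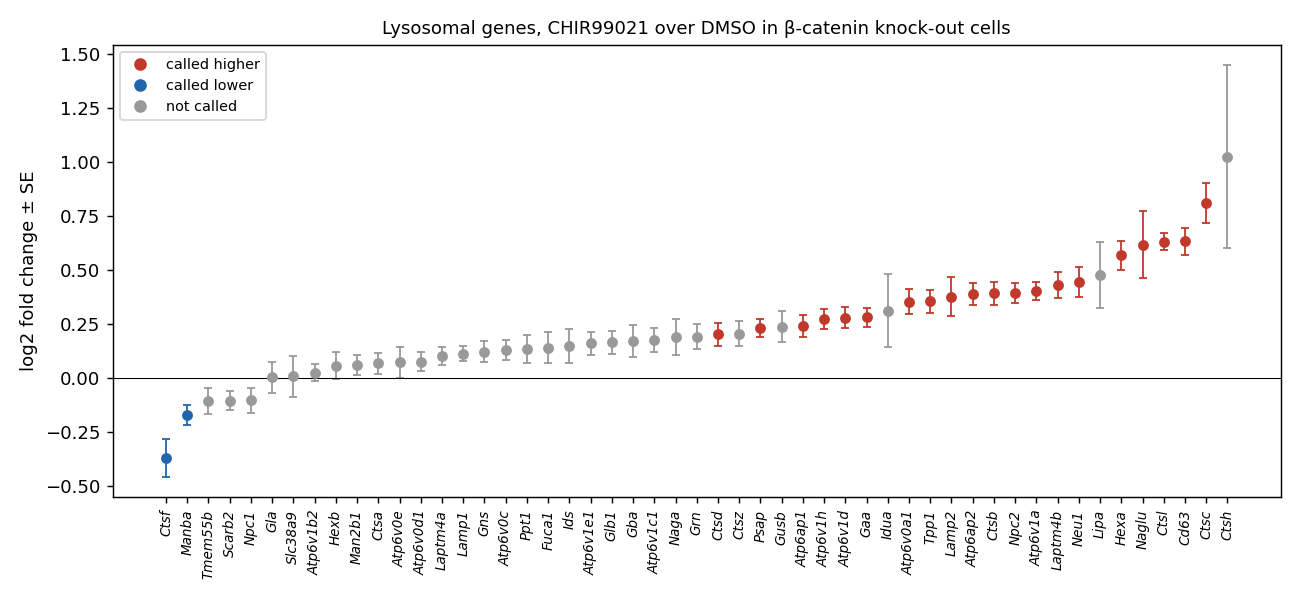
Log2 fold change ± SE, CHIR99021 over DMSO, of the 51 lysosomal genes tested in β-catenin knock-out cells, ordered by value. Red marks the 20 called higher, blue the 2 called lower and grey those not called; 46 of the 51 lie above 0, and Ctsc has the highest value among the called genes.

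TFEB, TFE3 and MITF are the transcription factors best known for driving lysosomal genes, and GSK3 is one of the kinases that act on them. All 3 of their transcripts were lower and none was higher with CHIR99021. Tfe3 was at 78.4 and 79.1 CPM with DMSO and 62.2 and 64.6 CPM with CHIR99021, a log2 change of -0.31 ± 0.05 (SE; adjusted p = 0.00302). Tfeb was at 49.5 and 42.8 CPM with DMSO and 35.9 and 34.9 CPM with CHIR99021. The change was -0.38 ± 0.07 (SE; adjusted p = 0.00907). It did not pass without DMSO replicate 1 (adjusted p = 0.0584), without CHIR99021 replicate 1 (0.0603) or without CHIR99021 replicate 2 (0.0818). Mitf was at -0.25 ± 0.06 (SE; adjusted p = 0.0433), and was not called in any of the 8 fits that left out 1 library, nor by DESeq2 (adjusted p = 0.278). Some target genes associated with these factors were higher: Trpm1 (ENSMUSG00000030523, chromosome 7, 64153835 to 64269775), an ion channel gene known from melanocytes, was at 2.61 and 3.09 CPM with DMSO and 6.43 and 7.03 CPM with CHIR99021, a change of 1.24 ± 0.11 (SE; adjusted p = 0.000324), the highest among called genes with at least 5 CPM. Rragd, a GTPase that links the lysosome to mTORC1, was at 22.04 and 21.1 CPM with DMSO and 29.02 and 29.04 CPM with CHIR99021, a change of 0.43 ± 0.06 (SE; adjusted p = 0.00259). Of the 20 tested genes of that list 4 rose and 3 fell, the latter being the 3 factors. Of 26 autophagy genes 6 fell and none rose (median -0.03; the count was 1 without CHIR99021 replicate 1 or CHIR99021 replicate 2 and 2 without DMSO replicate 1). Ulk1, the kinase that starts autophagy, was at 149.8 and 143 CPM with DMSO and 105 and 95.3 CPM with CHIR99021. This was a change of -0.55 ± 0.07 (SE; adjusted p = 0.00149). Apoe (ENSMUSG00000002985, chromosome 7, 19696109 to 19699188), a lipoprotein gene at a high level, was at 247 and 243 CPM with DMSO and 399 and 369 CPM with CHIR99021. This was a change of 0.65 ± 0.05 (SE; adjusted p = 0.000173).

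The 3 factors bind the letters CACGTG and the longer form TCACGTGA. MYC and clock factors share CACGTG, so its presence does not point to the 3 factors alone. Which factor acts on the lysosomal genes was not tested. A window of 250 bases before to 50 after each annotated start (RefSeq, GRCm38.p6) was searched on both strands; both motifs read the same on either strand and the longer holds the shorter. CACGTG was in 9.79% of 14395 promoters of tested genes, 11.7% of 444 promoters of genes called higher and 11.3% of 749 of genes called lower. For the lysosome list the share was 27.9% of 43 promoters tested, and 27.8% of the 18 promoters of members called higher. TCACGTGA was in 1.65% of all tested promoters, 3.15% of those of genes called higher, 1.07% of those of genes called lower and 6 of the 43 promoters of the lysosome list. The share of the motif was thus about as high in the members called as in the list as a whole. The stretches below show where it lies in the 6 called members that hold it, of which 5 were called higher and 1, Ctsf, lower, 5′ to 3′ in the direction of the gene, with the motif in capitals.
Atp6v1a: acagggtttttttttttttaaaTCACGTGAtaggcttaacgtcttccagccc
Ctsd: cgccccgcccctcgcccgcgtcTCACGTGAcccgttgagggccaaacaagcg
Ctsf: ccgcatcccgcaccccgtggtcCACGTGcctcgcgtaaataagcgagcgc
Ctsl: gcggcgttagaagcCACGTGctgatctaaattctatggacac
Gaa: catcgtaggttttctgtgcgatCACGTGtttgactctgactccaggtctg
Naglu: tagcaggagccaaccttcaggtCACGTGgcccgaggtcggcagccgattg
The motif of Atp6v1a begins at position -132 from the start (chr16:44139362-44139413, minus strand gene), that of Ctsd shown here at -99 (chr7:142387897-142387948, minus strand gene), with another CACGTG of that promoter at -245, that of Ctsf at -79 (chr19:4855064-4855113, plus strand gene), that of Ctsl at -236 (chr13:64370729-64370770, minus strand gene), that of Gaa at -140 (chr11:119267801-119267850, plus strand gene) and that of Naglu at -73 (chr11:101069999-101070048, plus strand gene). Gaa encodes the α-glucosidase that clears glycogen from lysosomes, Ctsd the protease cathepsin D and Naglu a heparan sulfate glucosaminidase. Their log2 fold changes were 0.28 ± 0.04, 0.20 ± 0.05 and 0.62 ± 0.15. Gaa did not pass without CHIR99021 replicate 1 (adjusted p = 0.059). Ctsd did not pass without parental CHIR99021 replicate 2 (adjusted p = 0.0521), without DMSO replicate 1 (0.0757), without DMSO replicate 2 (0.152), without CHIR99021 replicate 1 (0.216) or without CHIR99021 replicate 2 (0.128), nor Naglu without DMSO replicate 1 (adjusted p = 0.0833), without DMSO replicate 2 (0.129), without CHIR99021 replicate 1 (0.209) or without CHIR99021 replicate 2 (0.098). A match of letters is a description of the promoter and no evidence that a factor bound there.

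Some genes of the antioxidant response rose. NRF2, the product of Nfe2l2, switches on enzymes that detoxify oxidants and supply NADPH, and GSK3 is known to promote its breakdown. Of 33 tested targets 10 rose and 2 fell, with a median of 0.06 (the count was 5 without CHIR99021 replicate 1 or CHIR99021 replicate 2 and 6 without DMSO replicate 1). Cbr3 (ENSMUSG00000022947, chromosome 16, 93683215 to 93690990), a carbonyl reductase, was at 6.27 and 5.53 CPM with DMSO and 13.4 and 13.2 CPM with CHIR99021, a log2 change of 1.17 ± 0.10 (SE; adjusted p = 0.000197). Nqo1 (ENSMUSG00000003849, chromosome 8, 107388225 to 107403206), a quinone reductase, was at 39.95 and 38.1 CPM with DMSO and 57.3 and 59.4 CPM with CHIR99021. This was a change of 0.58 ± 0.05 (SE; adjusted p = 0.000336). Srxn1, which repairs peroxiredoxins, was at 0.41 ± 0.05, and Me1, the cytosolic malic enzyme that makes NADPH, at 0.59 ± 0.08. The shares over all genes tested were 2.88% higher and 4.18% lower, and this list was not tested against them. With the replicate block or the knock-out libraries alone, no member of the list was called lower. Nfe2l2 itself was at 92.99 and 96.8 CPM with DMSO and 114 and 118 CPM with CHIR99021, a change of 0.29 ± 0.04 (SE; adjusted p = 0.00312), while Keap1, which encodes its cytoplasmic inhibitor, was at 0.03 ± 0.07 (SE; adjusted p = 0.821). The letters TGACNNNGC, the core of the element that NRF2 binds, were in 14.1% of all tested promoters on either strand, in 35.3% of 34 promoters of the list and in 6 of 13 promoters (46.2%) of the members called higher. They occur in the promoter of Nfe2l2 at -240 (chr2:75704873-75704913, minus strand gene), shown here because it is the factor's own gene. The bases just after that start were not found in a GENCODE transcript of Nfe2l2, so the position rests on the RefSeq start alone.
Nfe2l2: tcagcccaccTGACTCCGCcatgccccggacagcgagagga

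Many mitochondrially encoded transcripts rose, and few nuclear genes of the same complexes were called. All 13 had a positive value, 8 rose and none fell, with a median of 0.24 (the count was 3 without CHIR99021 replicate 2 and 5 without DMSO replicate 1). Their sum was 31316 and 33885 CPM with DMSO and 37513 and 39994 CPM with CHIR99021. The cytochrome oxidase subunit gene mt-Co1 was at 7742 and 8240.5 CPM with DMSO and 10432 and 11153 CPM with CHIR99021, a log2 change of 0.43 ± 0.05 (SE; adjusted p = 0.00132), and had the largest rise in CPM of any called gene. The NADH dehydrogenase gene mt-Nd5 was at 875 and 1010.2 CPM with DMSO and 1288 and 1412 CPM with CHIR99021, a change of 0.52 ± 0.07 (SE; adjusted p = 0.0018). It overlaps mt-Nd6 on the opposite strand, at 0.52 ± 0.07. Of 40 nuclear-encoded genes of oxidative phosphorylation 1 rose and none fell, with a median of 0.01. Libraries were made from polyadenylated RNA and no RNA quality value was given, and the part of either in the rise was not tested.

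**Figure D4:**
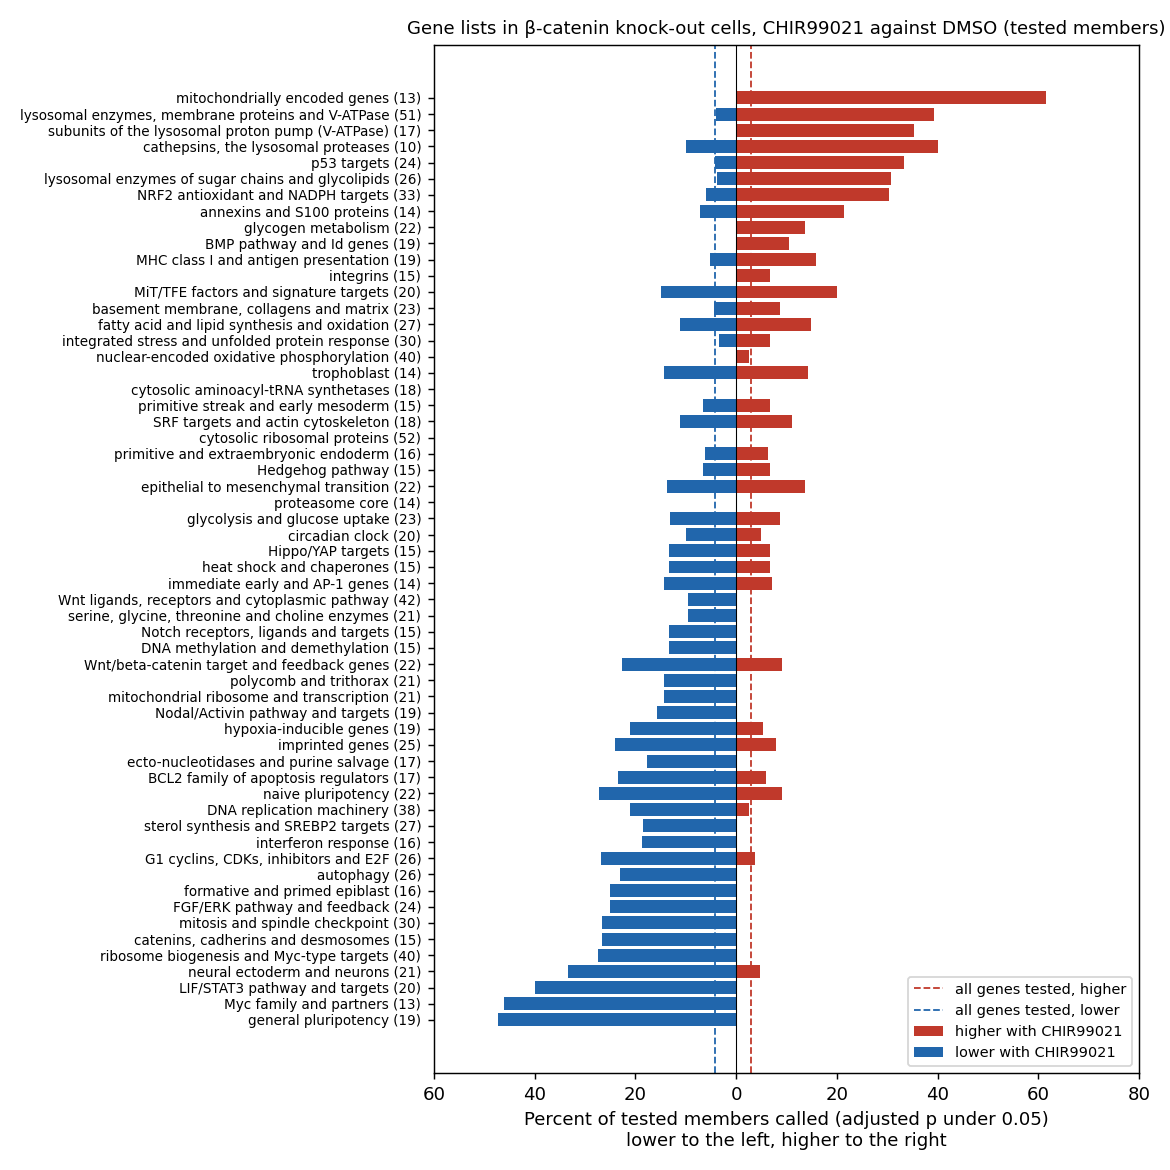
Percent of the tested members of 58 gene lists called lower (blue, to the left) or higher (red, to the right) with CHIR99021 in β-catenin knock-out cells; tested members are in parentheses and dashed lines give the share over all genes tested, 2.88% higher and 4.18% lower. Mitochondrially encoded, lysosomal, p53 and NRF2 lists extend to the right, and general pluripotency, Myc family and LIF/STAT3 lists to the left. The dashed lines take in genes at low levels. With at least 5 CPM in 2 libraries, 746 of 11122 genes were called higher and 796 lower, which are larger shares. Lists share members, and some were grouped after values were seen. A list was drawn if its share called lay well beyond a dashed line in either direction, so such bars follow from that choice. Ribosomal protein, oxidative phosphorylation, aminoacyl-tRNA synthetase and proteasome lists were drawn regardless. Lists with few tested members were left out, as were insulin, mTORC1 and FoxO targets and germline genes.

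The core markers of pluripotency did not pass edgeR's test, though 3 of them passed with other tests or filters. Without DMSO replicate 2, Nanog, Pou5f1 and Zfp42 also passed, at log2 fold changes of -0.14, -0.16 and -0.17. Pou5f1, which encodes OCT4, was at 1537 and 1456 CPM with DMSO and 1347 and 1388 CPM with CHIR99021 (log2 fold change -0.13 ± 0.04 (SE; adjusted p = 0.0691)), Nanog at -0.11 ± 0.04, Esrrb at -0.00 ± 0.04, Zfp42 at -0.14 ± 0.04, Sox2 at -0.12 ± 0.04, Klf4 at -0.07 ± 0.04 and Tfcp2l1 at 0.11 ± 0.03. Pou5f1, Zfp42 and Tfcp2l1 passed with DESeq2 (adjusted p = 0.0193, 0.0158 and 0.0148) and with limma-voom (0.0459, 0.0385 and 0.0432). In edgeR, Pou5f1 and Zfp42 passed with no filter beyond 1 count (adjusted p = 0.00559 and 0.0108). Zfp42 and Tfcp2l1 passed there with at least 5 CPM in 2 libraries (adjusted p = 0.0476 and 0.0288). Other genes of the stem cell state did change, mostly downward: of 19 such general genes 9 fell and 0 rose (median -0.14; the count was 2 without CHIR99021 replicate 1, 3 without CHIR99021 replicate 2 and 4 without DMSO replicate 1). Trim28, a co-repressor that silences retroelements, was at 1997 and 1836 CPM with DMSO and 1541 and 1519 CPM with CHIR99021, a change of -0.32 ± 0.04 (SE; adjusted p = 0.00145) and the largest fall in CPM. Zbtb45 overlaps it on the opposite strand. Epcam, an epithelial adhesion gene, was at -0.46 ± 0.07. Among 22 naive pluripotency genes 6 fell and 2 rose (median -0.01; the count was 3 without CHIR99021 replicate 1, CHIR99021 replicate 2, DMSO replicate 1 or parental CHIR99021 replicate 1). Nr5a2, a nuclear receptor, was at 82.8 and 89.2 CPM with DMSO and 65.2 and 67.7 CPM with CHIR99021, a change of -0.37 ± 0.05 (SE; adjusted p = 0.00259). Prdm14, a repressor that guards the naive state, was at -0.45 ± 0.07 (SE; adjusted p = 0.00347), whereas Spp1, a secreted phosphoprotein, rose to 0.29 ± 0.04 (SE; adjusted p = 0.00359). Of 16 formative and primed genes 4 fell and none rose (median -0.31; the count was 2 without CHIR99021 replicate 1, CHIR99021 replicate 2 or DMSO replicate 1), with the DNA methyltransferase gene Dnmt3a at -0.32 ± 0.05 and the epithelial transcription factor gene Grhl2 at 9.06 and 7.97 CPM with DMSO and 3.98 and 3.78 CPM with CHIR99021, a change of -1.13 ± 0.14 (SE; adjusted p = 0.0012).

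Several genes of the LIF pathway, which sustains mouse stem cells in serum, fell. Of 20 tested 8 fell and none rose, with a median of -0.15 (the count was 4 without CHIR99021 replicate 1, CHIR99021 replicate 2 or DMSO replicate 1). The receptor gene Lifr was at 78.8 and 79.5 CPM with DMSO and 60.8 and 58.7 CPM with CHIR99021. Its log2 change was -0.41 ± 0.05 (SE; adjusted p = 0.00105). Of targets of the pathway, the kinase genes Pim1 and Pim3 were at -0.34 ± 0.04 and -0.34 ± 0.04, and the homeobox gene Gbx2 at 71.1 and 62.1 CPM with DMSO and 42.3 and 48.2 CPM with CHIR99021, a change of -0.56 ± 0.08 (SE; adjusted p = 0.0018). Single members of other pathways fell as well. Fgf17, an FGF ligand, was at 65.9 and 56.99 CPM with DMSO and 40.5 and 39.00 CPM with CHIR99021, a change of -0.63 ± 0.07 (SE; adjusted p = 0.000581), among 24 FGF/ERK genes of which 6 fell and none rose (the count was 1 without CHIR99021 replicate 1, 2 without CHIR99021 replicate 2 and 3 without DMSO replicate 1). Ptch1, a Hedgehog receptor and feedback gene, was at -0.30 ± 0.04 (SE; adjusted p = 0.0018), and Gli1, another read-out of that pathway, at -0.15 ± 0.04 (SE; adjusted p = 0.0617). Notch4, a Notch receptor, was at 28.8 and 25.7 CPM with DMSO and 18.3 and 15.5 CPM with CHIR99021, a change of -0.69 ± 0.09 (SE; adjusted p = 0.00149). Kit, the receptor of stem cell factor, was at 54.2 and 54.5 CPM with DMSO and 36.2 and 34.8 CPM with CHIR99021, a change of -0.61 ± 0.05 (SE; adjusted p = 0.000173).

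Several neuronal genes fell. Of 21 tested genes of neural ectoderm and neurons 7 fell and 1 rose (median -0.23; the count was 2 without CHIR99021 replicate 1 or CHIR99021 replicate 2 and 3 without DMSO replicate 1). Crmp1 (ENSMUSG00000029121, chromosome 5, 37241940 to 37292133), of a family of cytoskeletal proteins that includes GSK3 substrates, was at 20.2 and 18.1 CPM with DMSO and 9.27 and 8.73 CPM with CHIR99021, a log2 change of -1.09 ± 0.09 (SE; adjusted p = 0.000193). It overlaps Evc on the opposite strand, at -0.34 ± 0.06. Of the 5 genes of its family, grouped after values were seen, Dpysl3 fell too, at 29.1 and 29.4 CPM with DMSO and 14.3 and 17.4 CPM with CHIR99021, a change of -0.88 ± 0.09 (SE; adjusted p = 0.000581). Dpysl4 was at -0.67 ± 0.14 and did not pass without DMSO replicate 2 (adjusted p = 0.0782), without CHIR99021 replicate 1 (0.0924) or without CHIR99021 replicate 2 (0.124). Gap43, a growth cone protein, was at 17.5 and 15.9 CPM with DMSO and 9.31 and 8.38 CPM with CHIR99021, a change of -0.92 ± 0.12 (SE; adjusted p = 0.00145).

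Several p53 targets rose while the gene for p53 was lower. Of 24 targets 8 rose and 1, Trp53 itself, fell (median 0.13; the count was 2 without CHIR99021 replicate 1 and 3 without CHIR99021 replicate 2 or DMSO replicate 1). Ccng1, a cyclin G gene, was at 159 and 181 CPM with DMSO and 223 and 234 CPM with CHIR99021. Its log2 change was 0.42 ± 0.05 (SE; adjusted p = 0.00156), and Mdm2, the ubiquitin ligase that limits p53, at 129 and 145 CPM with DMSO and 173 and 185 CPM with CHIR99021, a change of 0.39 ± 0.06 (SE; adjusted p = 0.00281). Trp53 was at -0.23 ± 0.05 (SE; adjusted p = 0.0187) and did not pass without DMSO replicate 1 (adjusted p = 0.13), without CHIR99021 replicate 1 (0.0885) or without CHIR99021 replicate 2 (0.131). Of 17 tested genes of the BCL2 family, which holds promoters and inhibitors of apoptosis and was grouped after values were seen, 4 fell and 1 rose, with a median of -0.04 (the count was 2 without CHIR99021 replicate 1, CHIR99021 replicate 2 or DMSO replicate 2). Bcl2l11, encoding the apoptosis promoter BIM, was at 31.5 and 30.2 CPM with DMSO and 20.9 and 20.5 CPM with CHIR99021, a change of -0.57 ± 0.06 (SE; adjusted p = 0.000538), and Bmf at 20.4 and 20.3 CPM with DMSO and 12.5 and 12.2 CPM with CHIR99021, a change of -0.72 ± 0.08 (SE; adjusted p = 0.00061). Of 20 tested circadian clock genes, grouped after values were seen, 1 rose and 2 fell (median -0.09). Over all genes tested 2.88% rose and 4.18% fell, and no list of this paragraph was tested against these shares. The 2 clock genes that fell were the repressors of the REV-ERB pair, Nr1d1 and Nr1d2. They were at -0.71 ± 0.08 (SE; adjusted p = 0.00105) and -0.60 ± 0.06 (SE; adjusted p = 0.000581), from 13.7 and 13.6 to 8.03 and 8.65 CPM for Nr1d1.

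Glycogen metabolism, in which GSK3 was first known as the kinase of glycogen synthase, had 3 of 22 higher and none lower (median 0.12; the count was 0 without CHIR99021 replicate 1 and 1 without CHIR99021 replicate 2 or DMSO replicate 1): Gaa, Pgm2 and Phkb. Sterol synthesis had 5 of 27 lower and none higher (median -0.09; the count was 0 without CHIR99021 replicate 1 or CHIR99021 replicate 2, 1 without DMSO replicate 1, 2 without parental DMSO replicate 1 and 3 without parental DMSO replicate 2), and 23 of its 27 members had a negative value. Imprinted genes had 6 of 25 lower and 2 higher (the count lower was 2 without CHIR99021 replicate 1 and 3 without DMSO replicate 1), among them Cdkn1c, given above, and the growth factor adaptor Grb10, which rose to 0.38 ± 0.05 (SE; adjusted p = 0.00116). Among 19 BMP pathway and Id genes 2 rose and none fell (the count was 0 without CHIR99021 replicate 1, CHIR99021 replicate 2 or DMSO replicate 1), and among 19 Nodal/Activin genes 3 fell and none rose (the count was 0 without CHIR99021 replicate 1 or CHIR99021 replicate 2 and 1 without DMSO replicate 1, DMSO replicate 2, parental CHIR99021 replicate 1, parental CHIR99021 replicate 2, parental DMSO replicate 1 or parental DMSO replicate 2). Of 30 genes of the integrated stress and unfolded protein responses 2 rose and 1 fell. Over all genes tested 2.88% rose and 4.18% fell, and no list of this paragraph was tested against these shares. None of 14 proteasome core genes, grouped after values were seen, was called in edgeR's test, and none of the 6 Hox genes that passed the filter.

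Some of the clearest single changes belong to none of these groups or to small ones. B2m (ENSMUSG00000060802, chromosome 2, 122147686 to 122153083), the light chain of MHC class I, was at 9.75 and 10.8 CPM with DMSO and 18.97 and 19.5 CPM with CHIR99021, a log2 change of 0.90 ± 0.08 (SE; adjusted p = 0.000324). Patl2, which overlaps it on the opposite strand, was at 0.96 ± 0.14, so the 2 values may not be separate. Anxa5, encoding annexin A5, was at 5.04 and 4.77 CPM with DMSO and 11.01 and 9.38 CPM with CHIR99021, a change of 1.06 ± 0.11 (SE; adjusted p = 0.000533). Fabp3 (ENSMUSG00000028773, chromosome 4, 130308595 to 130315463), a fatty acid carrier, was at 33.6 and 34.3 CPM with DMSO and 57.1 and 52.6 CPM with CHIR99021, a change of 0.69 ± 0.05 (SE; adjusted p = 0.000173), and Slc27a2, a fatty acid transporter, at 8.99 and 7.63 CPM with DMSO and 3.52 and 3.32 CPM with CHIR99021, a change of -1.28 ± 0.16 (SE; adjusted p = 0.00152). These 2 genes of fatty acid handling thus moved in opposite directions. Glul, encoding glutamine synthetase, was at 678 and 623 CPM with DMSO and 460.1 and 463 CPM with CHIR99021, a change of -0.50 ± 0.04 (SE; adjusted p = 0.000233). The serum-induced kinase gene Sgk1 was at 297 and 299 CPM with DMSO and 222 and 231 CPM with CHIR99021, a change of -0.40 ± 0.04 (SE; adjusted p = 0.000347). Lrp2, the endocytic receptor megalin, was at 67.4 and 64.4 CPM with DMSO and 41.5 and 38.6 CPM with CHIR99021, a change of -0.72 ± 0.06 (SE; adjusted p = 0.000193), and Slc2a1, the glucose transporter GLUT1, at -0.33 ± 0.04.

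Among the other genes with the highest or lowest fold changes, Gng12 was at 0.83 ± 0.13, Hmga2, a chromatin protein of growth, at 0.81 ± 0.09, Camk2n1 at 0.69 ± 0.09, Crocc2 at -1.07 ± 0.09 and Msc at -0.89 ± 0.10. Some others did not pass in each fit that left out 1 library. Scara5, at 0.85 ± 0.15, did not pass without DMSO replicate 1 (adjusted p = 0.0563) or without CHIR99021 replicate 1 (0.0647), and Nlrp4f, at 0.81 ± 0.14, without DMSO replicate 1 (adjusted p = 0.0913), without CHIR99021 replicate 1 (0.0629) or without CHIR99021 replicate 2 (0.0777). Ndrg1, at -1.002 ± 0.17, did not pass without CHIR99021 replicate 1 (adjusted p = 0.0699) and Sox21, at -0.96 ± 0.19, without DMSO replicate 1 (adjusted p = 0.109), without CHIR99021 replicate 1 (0.0926) or without CHIR99021 replicate 2 (0.0941). Gdf15, at 0.72 ± 0.18, did not pass without parental DMSO replicate 1 (adjusted p = 0.0504), without parental DMSO replicate 2 (0.0505), without parental CHIR99021 replicate 2 (0.052), without DMSO replicate 1 (0.195), without DMSO replicate 2 (0.093) or without CHIR99021 replicate 1 (0.268). Rps27rt, at 0.80 ± 0.20, did not pass without DMSO replicate 1 (adjusted p = 0.155), without DMSO replicate 2 (0.14), without CHIR99021 replicate 1 (0.11) or without CHIR99021 replicate 2 (0.199). Adnp, at -1.23 ± 0.29, did not pass without DMSO replicate 1 (adjusted p = 0.123), without DMSO replicate 2 (0.0913) or without CHIR99021 replicate 2 (0.197), and Kansl2-ps, at -1.28 ± 0.32, without DMSO replicate 1 (adjusted p = 0.276), without CHIR99021 replicate 1 (0.0731) or without CHIR99021 replicate 2 (0.238). Rps27rt and Kansl2-ps resemble other genes closely, so their reads may be shared with a copy. Adnp overlaps the gene model Gm20716 on the same strand, so its reads may be shared too. Gm20716 was at a mean of 194 CPM with DMSO and its log2 change of 0.05 was not called (edgeR adjusted p = 0.540). The other largest changes in CPM were rises of Hsp90aa1 at 0.23 ± 0.04, mt-Nd4 at 0.31 ± 0.06, mt-Co3 at 0.19 ± 0.03 and the gene model Gm10116 at 0.36 ± 0.04, and falls of the glycolytic gene Pkm at -0.18 ± 0.04 and of Actb at -0.18 ± 0.05. Of these 6 only Gm10116 passed in all 8 fits. Hsp90aa1 did not pass without DMSO replicate 1 (adjusted p = 0.0585) or without CHIR99021 replicate 2 (0.0943), mt-Nd4 without CHIR99021 replicate 2 (adjusted p = 0.124), mt-Co3 without CHIR99021 replicate 1 (adjusted p = 0.052) or without CHIR99021 replicate 2 (0.0858), Pkm without DMSO replicate 1 (adjusted p = 0.077), without CHIR99021 replicate 1 (0.125) or without CHIR99021 replicate 2 (0.0761) and Actb without parental DMSO replicate 1 (adjusted p = 0.0552), without parental DMSO replicate 2 (0.056), without parental CHIR99021 replicate 1 (0.0512), without DMSO replicate 1 (0.217), without CHIR99021 replicate 1 (0.226) or without CHIR99021 replicate 2 (0.0858).

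The parental line, which has β-catenin, was treated alongside. The response of the knock-out differed from it, by the interaction of line and treatment, in 1087 genes (6.13% of those tested). The count was 605 without CHIR99021 replicate 2, 628 without parental CHIR99021 replicate 1, 691 without DMSO replicate 1 and 700 without parental DMSO replicate 1; the differences named here were called in all 8 fits that left out 1 library. Of the 1252 genes that changed in the knock-out, 284 differed: 167 changed the same way in both lines, 40 changed in opposite directions and 77 were called in the knock-out and not in parental cells. For the other 968 no difference was called, which does not show that the responses were equal. Axin2 showed opposite responses, with a log2 fold change of 3.29 ± 0.09 in parental cells (SE; adjusted p = 4.27e-09) against -0.82 ± 0.12, a difference of -4.11 ± 0.15 (SE; adjusted p = 2.68e-07). Pim1 and Sgk1 also went up in parental cells, at 0.60 ± 0.04 and 0.44 ± 0.04, and down in the knock-out, and these differences were -0.93 ± 0.06 (SE; adjusted p = 5.9e-06) and -0.84 ± 0.05 (SE; adjusted p = 5.57e-06). Kit and Nr5a2, which fell in the knock-out, were at -0.05 ± 0.05 and 0.10 ± 0.05 in parental cells and were not called there; the differences were -0.56 ± 0.07 (SE; adjusted p = 0.000468) and -0.47 ± 0.07 (SE; adjusted p = 0.00294). Fabp3, which rose, was at -0.14 ± 0.05 there, a difference of 0.83 ± 0.08 (SE; adjusted p = 8.12e-05). Among the lysosomal genes the differences of Ctsl, Ctsb, Hexa and Atp6v1a were not called (-0.02 ± 0.06 (SE; adjusted p = 0.914) for Ctsl), whereas Ctsc rose more in parental cells, a difference of -1.71 ± 0.13 (SE; adjusted p = 1.53e-05). Myc fell less in parental cells, a difference of -0.60 ± 0.10 (SE; adjusted p = 0.00356). The lines differ in whatever else sets them apart, so these differences and the presence of β-catenin cannot be told apart.

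**Figure D5:**
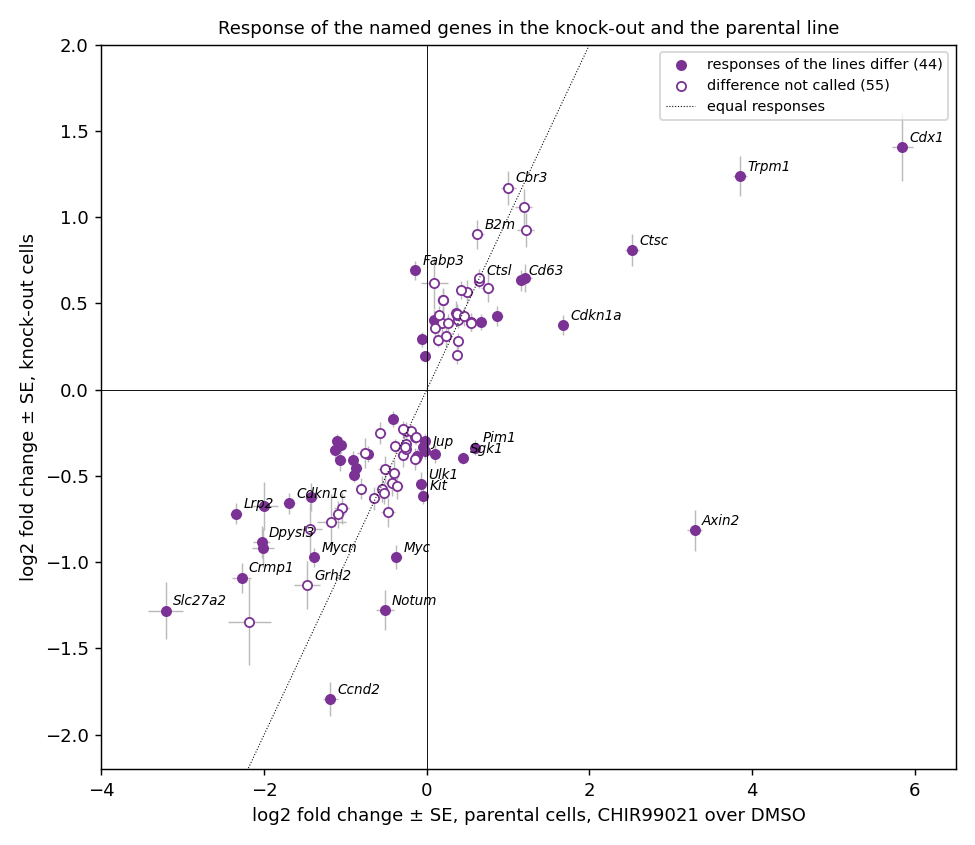
Log2 fold change ± SE, CHIR99021 over DMSO, of 99 of the genes named in the text and called in the knock-out. Parental cells are on the x axis and knock-out cells on the y axis. The 44 filled points mark genes whose responses differ between the lines by the interaction test. Some named genes whose responses differ were not drawn. The dotted line marks equal responses. Ctsl, Cbr3 and B2m lie near the dotted line, Axin2, Pim1 and Sgk1 lie to the lower right, and Cdx1, Trpm1 and Ctsc lie far to its right.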

How the data were processed

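Transcript abundance in 8 libraries was deposited by the authors as estimated counts per gene, made with kallisto on GRCm38.p4 per the submitters' processing notes. The transcript set, the strand setting and the kallisto version are not given in the sources used here. The library preparation selected polyadenylated RNA, per the labels' protocols. The estimated counts, of which 36.9% to 38.4% per library were not whole, were rounded. Libraries held 23650572 to 27680649 counts. Genes were kept by filterByExpr (at least 10 counts at the smallest library scale and 15 in total), which left 17739 of 48440, scaled by TMM and tested in edgeR 4.0.16 (R 4.3.3, limma 3.58.1) with the quasi-likelihood F test, 2-sided, with 4 group means over all 8 libraries and 4 residual degrees of freedom. Groups came from the labels. The contrasts were CHIR99021 against DMSO in the knock-out and its difference from the parental line. Benjamini-Hochberg adjustment ran over all genes tested, with calls at an adjusted p under 0.05. CPM are counts per 1000000 after TMM scaling, and the SE is the log2 fold change divided by the square root of F. CPM are not corrected for length, so levels are compared within a gene. The procedure was tested on simulated data.

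The comparison, the members and the gene lists were chosen with earlier results of these data known. Genes were named by a rule: Ctnnb1, Gsk3a, Gsk3b and Jup; the 15 highest and 15 lowest log2 fold changes among called genes that reached 5 CPM in 1 group mean, with no overlap between groups and no clone or model name; the 5 largest rises and 5 largest falls in CPM; and from each list at most 5 members, by adjusted p. Other list members are given as values, and lists grouped after values were seen are marked so. Lists are described by counts and medians, with no test of a list. Positions are GENCODE M21 on GRCm38, found for 17680 genes. Of 130 named genes with a position 42 overlap another tested gene, 33 of them on the opposite strand. Overlap is of whole gene spans, introns included. Promoter sequences are RefSeq, GRCm38.p6. Alternatives were DESeq2 1.42.0, limma-voom, relative log expression size factors, other filters on low counts, a replicate block, the knock-out libraries alone, a threshold of 0.01 and leaving out each library.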

Additional observations from a re-analysis of the deposited data

Results flagged for a closer look

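Genes named above were singled out where the response to CHIR99021 differed between the knock-out and the parental line by the test of the difference itself, the interaction term of edgeR's quasi-likelihood model, at an adjusted p under 0.05. There were 48 of them. Values are differences of log2 fold changes, knock-out minus parental, so a negative value means a lower response in the knock-out. Among genes that rose in parental cells and fell in the knock-out, the difference was -4.11 for Axin2, -0.93 for Pim1 and -0.84 for Sgk1. Among genes that rose in both lines and rose less in the knock-out, the difference was -4.44 for Cdx1, -2.61 for Trpm1, -1.71 for Ctsc, -1.30 for Cdkn1a, -0.52 for Cd63, -0.56 for Fuca2, -0.44 for Rragd and -0.27 for Npc2. Among genes of growth and the cell cycle that fell in the knock-out and had a higher log2 fold change in parental cells, the difference was -0.60 for Myc, -0.61 for Ccnd2, -0.26 for Ccnd1, -0.26 for Ccne1, -0.29 for Cdc20 and -0.27 for Rpa2. Among genes of signalling, adhesion, autophagy and the stem cell state that fell in the knock-out and had a higher log2 fold change in parental cells, the difference was -0.76 for Notum, -0.33 for Jup, -0.56 for Kit, -0.48 for Ulk1 and -0.47 for Nr5a2. Among genes of neurons and their cytoskeleton that fell by less in the knock-out than in parental cells, the difference was 1.19 for Crmp1, 1.15 for Dpysl3, 1.32 for Dpysl4, 1.10 for Gap43, 0.78 for Tubb3 and 1.66 for Sox21. Among genes of signalling and adhesion that fell by less in the knock-out, the difference was 0.51 for Lifr, 0.81 for Ptch1, 0.66 for Tcf7l1, 0.35 for Tle4 and 0.80 for Cdh3. Among genes of other roles that fell by less in the knock-out, the difference was 0.25 for Manba, 0.42 for Mycn, 1.04 for Cdkn1c, 0.73 for Dnmt3a, 0.42 for Prdm14, 0.40 for Glul, 1.62 for Lrp2, 1.93 for Slc27a2 and 0.96 for Crocc2. Among genes that rose in the knock-out and were not called in parental cells, the difference was 0.83 for Fabp3, 0.56 for Camk2n1, 0.31 for Srxn1, 0.35 for Spp1 and 0.22 for mt-Co3. The difference was -2.37 for the pseudogene Kansl2-ps, whose reads may be shared with its source gene. Of the 48 differences 29 were called in each of the 8 fits that left out 1 library.

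The other 19 were lost in at least 1 of these fits, that of Manba in each of the 8. Those of Camk2n1, Ccnd1, Ccnd2, Ccne1, Fuca2, Mycn, Notum, Prdm14, Rpa2, Srxn1 and mt-Co3 were not called without knock-out CHIR99021 replicate 1. Those of Camk2n1, Ccnd1, Ccnd2, Ccne1, Cdc20, Jup, Kansl2-ps, Npc2, Prdm14, Srxn1, Tle4, Ulk1 and mt-Co3 were not called without knock-out CHIR99021 replicate 2. Those of Camk2n1, Ccnd1, Ccnd2, Ccne1, Cdc20, Kansl2-ps, Notum, Npc2, Prdm14, Rpa2, Rragd and Ulk1 were not called without knock-out DMSO replicate 1. Those of Npc2, Prdm14 and Srxn1 were not called without knock-out DMSO replicate 2. Those of Ccnd1, Ccnd2, Cdc20, Fuca2, Jup, Notum, Npc2, Prdm14, Rpa2, Rragd, Srxn1, Tle4, Ulk1 and mt-Co3 were not called without parental CHIR99021 replicate 1. Those of Camk2n1, Ccnd2, Ccne1, Fuca2, Kansl2-ps, Npc2, Rpa2 and Srxn1 were not called without parental CHIR99021 replicate 2. Those of Ccnd1, Ccne1, Cdc20, Fuca2, Jup, Npc2, Rragd, Srxn1, Ulk1 and mt-Co3 were not called without parental DMSO replicate 1. Those of Camk2n1, Ccnd1, Ccnd2, Ccne1, Fuca2, Notum, Npc2, Prdm14, Rpa2, Rragd, Srxn1 and mt-Co3 were not called without parental DMSO replicate 2. DESeq2 did not call 9 of the 48 differences, those of Camk2n1, Ccnd2, Fuca2, Manba, Notum, Npc2, Prdm14, Rragd and Srxn1, with adjusted p from 0.0531 (Notum) to 0.208 (Ccnd2). The highest adjusted p in the fits that left out 1 library was 0.173, for Manba, whose difference was also not called with the replicate block (adjusted p = 0.0598). Whether a difference comes from β-catenin or from another feature of the line cannot be told apart.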

How the results depend on the processing

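No gene among the 1252 called changed sign under any alternative that gave it a value. The libraries of the groups did not overlap in any of these genes, so leaving out 1 library could hardly change a sign. Steady signs are thus no separate support. The count of called genes, 510 higher and 742 lower, was 2167 (904 higher and 1263 lower) with no filter beyond 1 count, where more genes were tested, and 342 (136 higher and 206 lower) at an adjusted p under 0.01. DESeq2 called 846, of which 326 were higher and 520 lower, and 784 of the 1252 were among them. For limma-voom the count was 1293, for relative log expression size factors 1228, for at least 5 CPM in 2 libraries 1542 and for the 4 knock-out libraries alone 1011. The 50 called genes over 2-fold were 8 with DESeq2, 232 with no filter, 20 with at least 5 CPM in 2 libraries and 19 at an adjusted p under 0.01. The difference between lines, 1087 genes, was 1990 with no filter and 509 at an adjusted p under 0.01. Leaving out 1 library gave 307 to 1237 called genes (121 to 513 higher, 182 to 724 lower), 24 to 75 over 2-fold and 605 to 1143 differences between lines. The lowest counts came without CHIR99021 replicate 1 (307 called, 121 higher), CHIR99021 replicate 2 (182 lower, 605 differences) and the other libraries named beside the counts above. The cause of these moves was not tested.

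Libraries with the same replicate number did not deviate together: the 6 correlations of their deviations between groups ran from -0.06 to 0.10, and that between the knock-out groups was -0.01, so the number is only a name. With the replicate block 1313 genes were called, 548 higher and 765 lower, 62 over 2-fold, and 1135 differed between lines. Of the genes named, Mitf and Manba lost their calls there (adjusted p = 0.0528 and 0.0581), and Manba also with relative log expression size factors (0.0530). DESeq2 also did not call Rps27rt (0.0915), Kansl2-ps (0.147), Adnp (0.0747), Ctsf (0.152), Manba (0.124) or Mitf (0.278), and with the knock-out libraries alone Gdf15 (0.0561), Pkm (0.0600), Actb (0.0790), Ctsf (0.0506), Manba (0.0755), Mitf (0.0895) and Naglu (0.05002) did not pass. Ccnd3 passed with DESeq2 (adjusted p = 0.00963) and with limma-voom (0.0480). In edgeR it passed with no filter beyond 1 count (adjusted p = 0.000498) and with at least 5 CPM in 2 libraries (0.0433).

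Depth was at least 23650572 counts in each library. The limits are 2 libraries a group, 1 knock-out line, 1 dose and 1 time, and RNA levels relative to the total. Genes at a few CPM, such as Axin2, Cdx1 and Frat1, rest on fewer counts than the rest. For genes whose span overlaps another on the opposite strand, it is not known whether reads of the pair were kept apart. The strand setting is not given, and shared exons were not examined.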
